A study of Mus musculus with 8 samples.

Results

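The cells described here carried the label definitive endoderm or notochord in the combined cell type annotation of the Eomes chimera experiment. They were found by reading that label for every cell, and they numbered 123 of 28723 cells, with 64 labelled definitive endoderm and 59 labelled notochord. Wild-type (WT) C57BL/6 blastocysts were injected with mouse embryonic stem cells (ESC) that lacked Eomes and expressed the red fluorescent protein tdTomato. The chimeric embryos were collected at around embryonic day (E) 8.5, pooled at about 4 embryos per tube, dissociated, and sorted into tdTomato+ and tdTomato- cells for droplet single-cell RNA sequencing. This gave 4 libraries of tdTomato+ cells with the Eomes null genotype (Eomes-KO), each from an independent ESC clone. The other 4 libraries held tdTomato- WT host cells from the same pools, so that each pool gave a library of either kind. In the mutant cells CRISPR had removed the stretch from the first to the fifth intron of Eomes. No library held injected WT ESC, so loss of Eomes and origin from injected ESC cannot be told apart in any comparison of genotypes. The labels do not tie the library names in the cell table to the embryo pools, so the tdTomato+ and tdTomato- libraries of a pool could not be matched. Libraries are therefore named here by genotype and number of cells, such as WT host 5819.

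Definitive endoderm leaves the anterior primitive streak during gastrulation and goes on to line the gut. The node, at the anterior end of the streak, and the notochord that extends from it form the axial mesoderm, a midline rod that patterns the neural tube and the gut through secreted Sonic hedgehog. Eomes encodes a T-box transcription factor of the epiblast and primitive streak, and the anterior streak is the common source of both tissues. Foxa2 is known to mark both, Sox17 the definitive endoderm, Noto the node and notochord, and Shh the notochord. The table analysed here holds labels and quality measures per cell but no gene counts, so none of these 4 markers could be checked.

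The labels came from a reference atlas of mouse gastrulation. Each chimera cell had been matched to its 15 nearest atlas cells, and it received an original atlas label, a label from a later, finer annotation called the extended atlas, and an atlas stage. A score beside each label is the fraction of those 15 neighbours that carry it. For all 123 cells the combined label was the original atlas label, and no cell with either original label had been given another combined label.

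The extended annotation went against the name definitive endoderm for most of the cells that had it. Of the 64 cells, 36 were extended notochord (56.2%, 95% exact Clopper-Pearson interval 43.3 to 68.6%) and 13 were extended node, so 49 of 64 (76.6%, interval 64.3 to 86.2%) had an axial mesoderm label. A further 8 were extended gut tube, 6 were extended anterior primitive streak and 1 was extended non-neural ectoderm. These intervals cover counting error only. Because of this "definitive endoderm" stands here for the label that chose the cells and not for a cell type shown by the data.

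The name notochord fitted the extended annotation at the level of the tissue but not of the word. All 59 cells labelled notochord were extended node, in every library that held any, and none was extended notochord. Read from the other side, all 36 extended notochord cells of the series were labelled definitive endoderm, and the 72 extended node cells were labelled notochord (59) or definitive endoderm (13). Together 108 of the 123 cells (87.8%) were extended node or notochord, and no cell outside the 123 was. Of the 803 cells labelled gut, the label closest to definitive endoderm by name, 0 were extended node or notochord, which allows a share of up to 0.458% (exact interval).

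The same split was seen in each WT host library. Extended notochord cells numbered 6 of 9 cells labelled definitive endoderm in WT host 2414, 11 of 16 in WT host 3791, 10 of 18 in WT host 5819 and 9 of 21 in WT host 8133. Extended node cells numbered 2, 4, 4 and 3 in the same order. The library that stood apart was WT host 8133, which held 5 of the 6 anterior primitive streak cells and the only non-neural ectoderm cell. The 8 gut tube cells were split as 0, 1, 4 and 3.

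**Figure D1:**
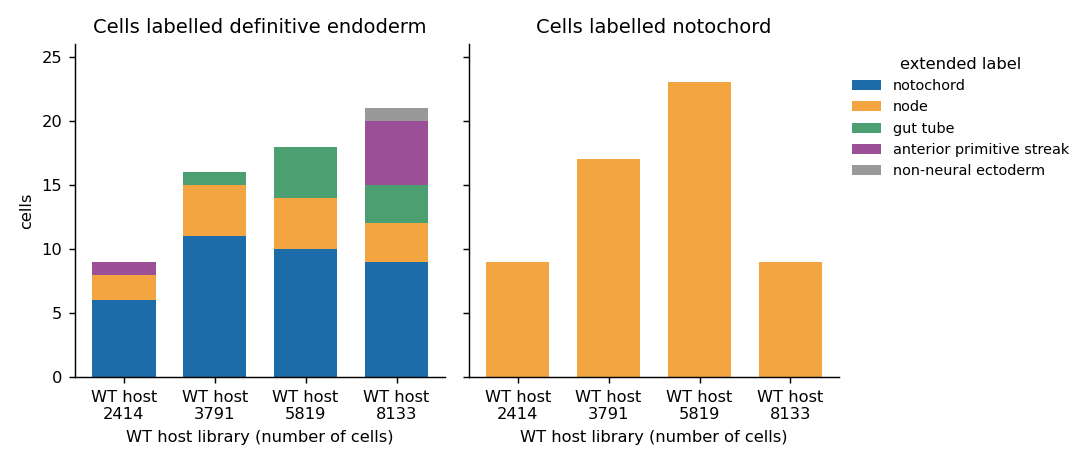
Number of WT host cells (y axis) labelled definitive endoderm (left) and notochord (right) in each of the 4 WT host libraries (x axis), coloured by extended atlas label. Extended notochord is the most frequent colour on the left in every library, and all 58 cells on the right are extended node.

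Cells with either label were almost confined to the host. All 64 cells labelled definitive endoderm and 58 of the 59 labelled notochord were WT host cells, and the single exception was an Eomes-KO cell labelled notochord. Shares are given of epiblast-derived cells, the cells left after visceral, parietal and ExE endoderm and ExE ectoderm are set aside, which numbered 19284 in the WT host and 8561 in the Eomes-KO libraries.

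The share labelled definitive endoderm was 0.376% in WT host 2414 (9 of 2395 cells), 0.426% in WT host 3791 (16 of 3758), 0.349% in WT host 5819 (18 of 5153) and 0.263% in WT host 8133 (21 of 7978). It was 0 in all 4 Eomes-KO libraries, of 601, 1150, 3345 and 3465 cells. The number of cells in the Eomes-KO libraries differed widely. A count of 0 (a limit of 3 cells) allows up to 0.499% in Eomes-KO 602, above every host share. In Eomes-KO 1153 it allows 0.261%, just under the lowest host share, but the exact interval reaches 0.320%, above that share. The limit of 3 cells allows only 0.0897% and 0.0866% in Eomes-KO 3346 and Eomes-KO 3465. At the pooled host share, 28.4 such cells would have been counted among the Eomes-KO cells, 11.1 and 11.5 of them in those larger libraries.

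Taken over libraries, the share was 0.354% ± 0.0680 (SD, n = 4) in the WT host. Since Eomes-KO held 0 cells, its share is given as a bound. Had the group held 3 such cells, it would have been 9.47-fold lower. Against that floor of 3 cells it was at least 9.47-fold lower. The exact upper limit for 0 of 8561 cells lies above that floor (0.0350%), at 0.0431%, where the pooled host share was 0.332%. A bound against the floor, here and below, leaves out counting error in the host and the spread between libraries. The 9.47-fold bound leans on the larger Eomes-KO libraries, and it was 5.77-fold without Eomes-KO 3346 and 5.64-fold without Eomes-KO 3465. The cell numbers of all 33 combined labels with at least 10 cells were compared by edgeR's quasi-likelihood test, where a library counts as a replicate, and the label was lower in Eomes-KO at a Benjamini-Hochberg adjusted p = 0.00075. By that test 48.5% of the 33 labels were called lower and 69.7% were called in either direction, so a call in itself sets neither label apart from the rest of the embryo. Cells labelled gut, 793 in the WT host and 10 in Eomes-KO, were lower too (log2 fold change -5.11, edgeR adjusted p = 4.9e-07). A low number in Eomes-KO was thus not particular to either label.

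The share labelled notochord was 0.376% in WT host 2414 (9 cells), 0.452% in WT host 3791 (17 cells), 0.446% in WT host 5819 (23 cells) and 0.113% in WT host 8133 (9 cells). It was 0.0870% in Eomes-KO 1153 (1 of 1150 cells, exact interval 0.00220 to 0.484%) and 0 in the other Eomes-KO libraries. The share in WT host 8133 was close to that of Eomes-KO 1153 and within its interval. The means were 0.347% ± 0.160 in the WT host and 0.0217% ± 0.0435 in Eomes-KO (SD, n = 4 each). The pooled ratio of WT host to Eomes-KO shares was 25.7 with a counting interval of 4.44 to 1034, where 25.7 Eomes-KO cells would have been counted at the host share. The ratio rests on a single Eomes-KO cell. It was 15.7 without Eomes-KO 3346 and 15.3 without Eomes-KO 3465, and without Eomes-KO 1153, which held that cell, the share was at least 7.43-fold lower (floor of 3 cells). edgeR's test gave a log2 fold change of -4.42 (SE 1.17) and an adjusted p = 0.0031.

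With both labels together, the share was 0.752%, 0.878%, 0.796% and 0.376% in WT host 2414, 3791, 5819 and 8133. The mean was 0.700% ± 0.222 in the WT host and 0.0217% ± 0.0435 in Eomes-KO (SD, n = 4 each), a difference of -0.679 percentage points. An exact two-sided permutation test over libraries gave p = 0.0286, the smallest that 4 against 4 libraries allow. The host libraries fell into a group of 3 and the lower WT host 8133. Without it the difference was -0.787 percentage points.

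**Figure D2:**
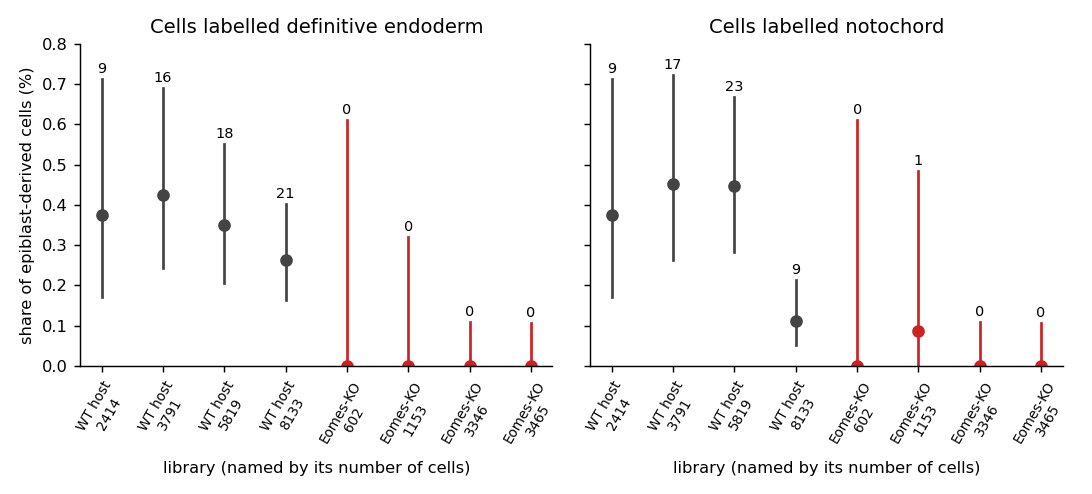
Share of epiblast-derived cells (y axis, percent) labelled definitive endoderm (left) and notochord (right) in each library (x axis), WT host in grey and Eomes-KO in red. Points are shares, bars are 95% exact binomial intervals and the number above a bar is the number of cells. In both panels the bars of the 2 smallest Eomes-KO libraries overlap those of the host. On the right, the bars of Eomes-KO 3346 and Eomes-KO 3465 also overlap that of WT host 8133.

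The libraries also differed in UMIs (unique molecular identifiers, the counted RNA molecules) per cell. The median epiblast-derived cell held 5105 to 10831 UMIs in the WT host and 8901 to 32568 in the Eomes-KO libraries, and 3 of the 4 Eomes-KO medians lay above every host median. Among cells with at least 10000 UMIs, 8 of 6066 WT host cells were labelled definitive endoderm and 5 notochord, against 0 and 1 of 5859 Eomes-KO cells. The shares with both labels were then 0.214% (exact interval 0.114 to 0.366%) and 0.0171%, in the same direction, and the exact permutation test over libraries no longer passed (difference -0.127 percentage points, p = 0.143). How far this rests on the smaller number of cells was not tested.

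With the extended labels the Eomes-KO shares were lower too. Extended node cells, all of which carried either label, numbered 11, 21, 27 and 12 in WT host 2414, 3791, 5819 and 8133 and 1 in all Eomes-KO libraries, a ratio of shares of 31.5 (counting interval 5.48 to 1262) that rests on the same Eomes-KO cell. It was 19.2 and 18.8 without Eomes-KO 3346 and Eomes-KO 3465, and the share was at least 9.10-fold lower without Eomes-KO 1153. edgeR's test over the 69 extended labels with at least 10 cells gave a log2 fold change of -4.72 (SE 0.97) and an adjusted p = 0.00023. Extended notochord cells numbered 6, 11, 10 and 9 in the host and 0 in Eomes-KO, at least 5.33-fold lower against the group floor of 3 cells (adjusted p = 0.00096). That bound was 3.25-fold without Eomes-KO 3346 and 3.17-fold without Eomes-KO 3465. Of these 69 labels 63.8% were called lower and 73.9% in either direction. With the original labels, of which 51.7% of 29 were called lower and 75.9% in either direction, the adjusted p was 0.00017 for definitive endoderm and 0.0014 for notochord.

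The 1 Eomes-KO cell labelled notochord had label scores as high as the highest of the host cells. All 15 neighbours carried its original and its extended label, as was the case for 42 and 44 of the 58 host cells labelled notochord. It was extended node and mapped to E8.0 with a stage score of 0.667, equal to the highest of the host cells. It held 14717 UMIs and 4334 genes, more than any of the 58 host cells, whose UMIs reached 12612 and genes 3999. The median in its own library was 19297 UMIs. Its ribosomal share of UMIs was 21.0%, against a median of 27.5% in its library and 18.0% in the host cells labelled notochord. Its mitochondrial share was 3.36%, above 95.7% of the cells of its library (median 1.49%) and above 52 of the 58 host cells. Its doublet score of 0.19 was below the median of 0.24 in its library and above 46 of the 58 host cells (median 0.13). The table gives the sort of each library and a second tdTomato field for each cell, which was not analysed here. It holds no tdTomato UMIs of single cells, and whether this cell was a host cell sorted in error was not tested.

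**Figure D3:**
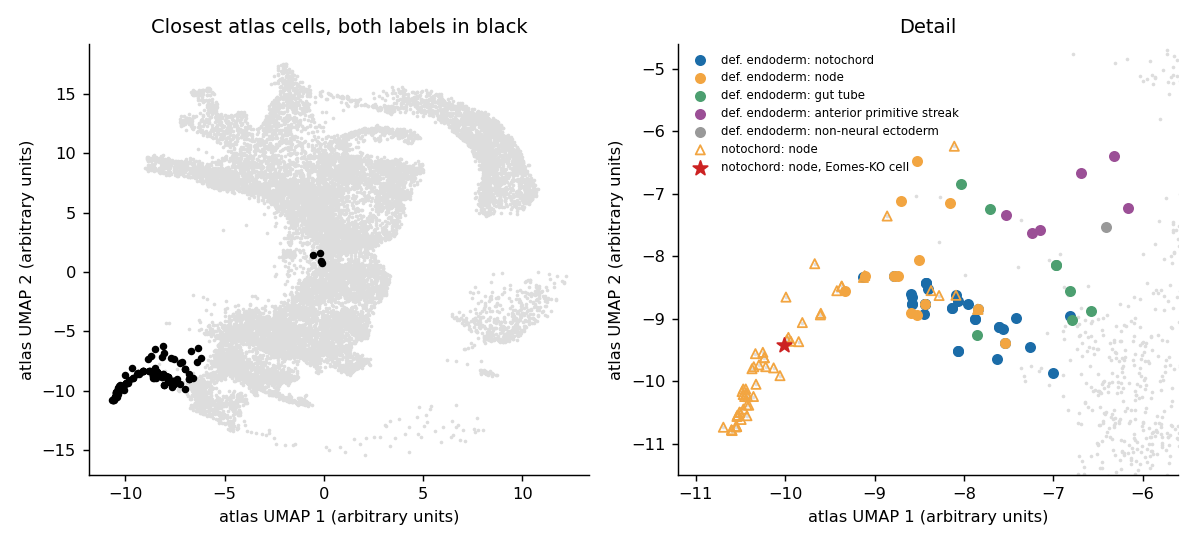
Closest atlas cell of each chimera cell on the atlas UMAP (both axes in arbitrary units). Left, the 123 cells in black over the closest atlas cells of all 28723 cells in grey. Right, detail with cells labelled definitive endoderm as filled circles coloured by extended label, host cells labelled notochord as open triangles and the Eomes-KO cell as a star. The triangles run along the outer arm and the filled circles lie at its inner end, with 4 of the 123 cells outside the detail.

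On the atlas map both labels lay along 1 arm, apart from 3 cells labelled definitive endoderm and 1 labelled notochord whose closest atlas cell lay elsewhere. The cells labelled definitive endoderm had 50 distinct closest atlas cells and those labelled notochord 54, and 4 atlas cells were the closest of both. Through these, 5 cells of each label shared their closest atlas cell with a cell of the other. With gut, 1 cell labelled definitive endoderm did so, and no cell labelled notochord shared its closest atlas cell with a cell of any further label. The map and the labels come from the same atlas neighbours and are not independent of each other.

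The cells labelled definitive endoderm differed among themselves in atlas stage, and the stage went with the extended label. Stage, labels and scores come from the same atlas neighbours and are not independent of each other. How far the atlas stages of each extended label set this pattern was not tested. Of the 64 cells, 14 mapped to E7.5, 4 to E7.75, 29 to E8.0, 10 to E8.25 and 7 to E8.5. The 36 extended notochord cells mapped to E8.0 (21), E8.25 (8) and E8.5 (7), and 0 mapped earlier. The earliest stages came from the other extended labels, with 7 of the 8 gut tube cells and 5 of the 6 anterior primitive streak cells at E7.5. The 13 extended node cells lay between, with 2 at E7.5, 2 at E7.75, 7 at E8.0 and 2 at E8.25.

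Their scores, which come from the same neighbours, followed the same split. The median original label score was 0.867 in the extended notochord cells, 0.667 in the extended node cells, 0.633 in the gut tube cells and 0.367 in the anterior primitive streak cells. Only extended notochord cells reached a score of 1, in 10 of 36 cells. The anterior primitive streak cells were the least certain, with an extended label score of under 0.5 in 6 of 6 and an original label score of under 0.5 in 4 of 6. These are descriptions over cells, which are not replicates, and no test was made.

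Cells labelled notochord formed a narrower set. Of the 58 host cells, 3 mapped to E7.5, 23 to E7.75, 31 to E8.0, 0 to E8.25 and 1 to E8.5, so 26 of 58 (44.8%) mapped before E8.0 and a single cell after it. Their scores were high. The median original and extended label scores were both 1, and 2 of 58 cells had an original label score of under 0.5, against 5 of the 64 cells labelled definitive endoderm. For the extended label this was 0 of 58 against 12 of 64.

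**Figure D4:**
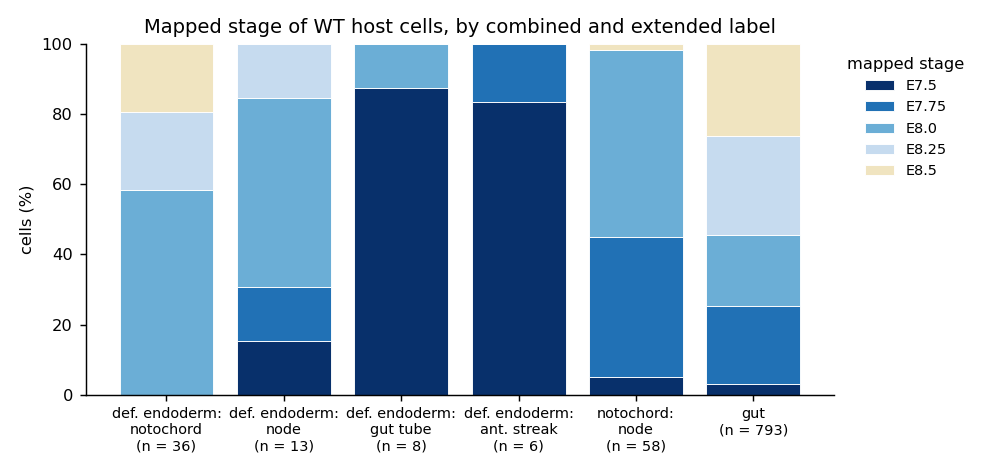
Percent of WT host cells (y axis) mapped to each of 5 atlas stages (colours, dark for early), for cells labelled definitive endoderm split by extended label, for cells labelled notochord, all extended node, and for cells labelled gut, with the number of cells below each bar. The extended notochord bar has no cell before E8.0, the gut tube and anterior streak bars are mostly E7.5 and the notochord bar is almost all E7.75 and E8.0.

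Both labels mapped to earlier stages than the rest of their library. The share of cells labelled notochord that mapped before E8.0 was 66.7%, 29.4%, 47.8% and 44.4% in WT host 2414, 3791, 5819 and 8133, where it was 10.8%, 3.65%, 10.1% and 7.98% among cells with neither label. For cells labelled definitive endoderm it was 22.2%, 12.5%, 22.2% and 47.6%. Both were above the rest in every library. Gut cells had 21.1%, 12.2%, 32.3% and 26.3%, so the definitive endoderm share lay above that of gut only slightly in WT host 2414 and 3791, below it in WT host 5819 and above it in WT host 8133. The mean mapped stage was day 7.88 ± 0.0239 for notochord and 7.98 ± 0.134 for cells labelled definitive endoderm (SD over 4 libraries), against 8.22 for the other epiblast-derived cells in each comparison. Among the 26 combined labels with at least 5 cells in each WT host library, notochord had the earliest mean stage and definitive endoderm the next.

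These comparisons within a library were tested by exact sign flips over the 4 WT host libraries, two-sided. With 4 libraries the smallest p is 0.125, so no such difference can pass 0.05, and the number of libraries that share a direction is given instead. Each label was compared with the other epiblast-derived cells in 9 measures. The mapped stage was earlier in 4 of 4 libraries for both labels (p = 0.125, exact sign-flip test, adjusted p = 0.161 over the 9 measures). All such values below with 4 of 4 libraries have the same p and adjusted p, unless others are given.

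Cells labelled notochord had the lowest ribosomal share of the 26 labels ranked. The median percent of a cell's UMIs that were ribosomal was 19.8, 18.0, 16.9 and 20.1 in WT host 2414, 3791, 5819 and 8133, with a mean of 18.7 ± 1.51 (SD, n = 4). The other epiblast-derived cells had 25.9 ± 0.931, a difference of -7.20 percentage points, lower in 4 of 4 libraries. Among the 26 labels notochord was the lowest, and the next, cardiomyocytes, stood at 22.7. The difference from gut cells of the same library was -5.90 percentage points (exact p = 0.125).

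Cells labelled notochord also held few UMIs. Their median UMI count was 4337, 6320, 7468 and 4190 in the 4 libraries, with a mean of 5579 ± 1591, against 8768 ± 2698 in the other cells. This was 0.644-fold, lower in 4 of 4 libraries and the lowest of the 26 labels. The mitochondrial percent was 3.04, 2.16, 2.48 and 1.85, a mean of 2.38 against 1.68 in the other cells. It was higher in 4 of 4 libraries and the highest of the 26 labels, but the difference in WT host 8133 was only 0.08 percentage points. Gut had the next highest value of the 26 labels (2.16). The difference from gut was 0.226 percentage points (exact p = 0.625), and in WT host 8133 notochord was lower than gut, 1.85 against 2.38. The lowest count of any cell in the table was 3163, and 10 of the 58 host cells labelled notochord held under 4000. So did 8 of the 64 cells labelled definitive endoderm and 126 of the 793 host cells labelled gut. How far the low number of UMIs bore on which cells were kept was not tested.

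Cells labelled definitive endoderm went in the same directions with a smaller size. Their median UMI count was 5399, 7735, 6902 and 4759, with a mean of 6199 ± 1362 against 8766 in the other cells (0.725-fold, lower in 4 of 4 libraries), the next lowest of the 26 labels after notochord. Gut followed with 7237, and the log2 ratio to gut was -0.20 (exact p = 0.375), against -0.46 to the other cells, with definitive endoderm above gut in WT host 8133 (4759 against 4453). The ribosomal percent was 23.2, 23.6, 23.2 and 23.7, with a mean of 23.4 ± 0.281 against 25.9, lower in 4 of 4 libraries. The mitochondrial percent was 2.15 against 1.68, higher in 4 of 4 libraries, but it differed from that of gut cells by -0.00875 percentage points (exact p = 0.875).

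**Figure D5:**
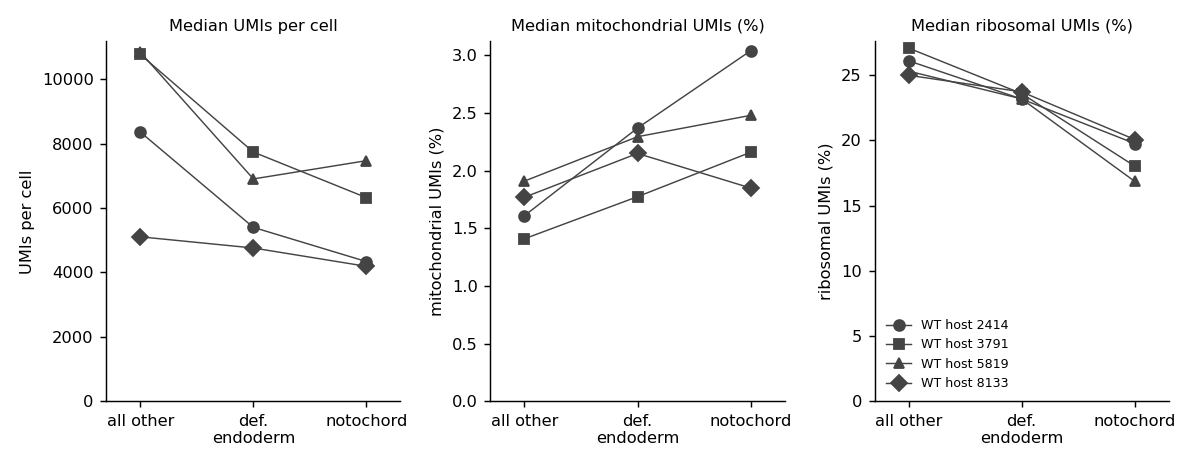
Median UMIs per cell, percent mitochondrial UMIs and percent ribosomal UMIs (y axes) of all other epiblast-derived cells, cells labelled definitive endoderm and cells labelled notochord (x axis), with a line for each of the 4 WT host libraries. The lines for ribosomal percent fall in every library, to between 16.9 and 20.1 for notochord.

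The ribosomal percent also separated both labels from each other. It was higher in the cells labelled definitive endoderm than in those labelled notochord in 4 of 4 libraries, by 4.73 ± 1.43 percentage points (SD, exact sign-flip p = 0.125, adjusted p = 0.375 over 9 measures). In cells pooled over libraries, which are not replicates, the medians did not follow the extended label, and no test was made. The 13 cells labelled definitive endoderm that were extended node had a median of 23.2%, near the 23.1% of the 36 extended notochord cells, where the 58 host cells labelled notochord, also extended node, had 18.0%. In UMIs and genes the labels lay closer, with 1.12-fold more UMIs in cells labelled definitive endoderm (higher in 3 of 4 libraries, exact p = 0.25, adjusted p = 0.45), and for genes the log2 ratio was 0.00588 (exact p = 0.875).

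The labels were given with unequal certainty. The library medians of the original label score averaged 0.750 ± 0.114 for cells labelled definitive endoderm and 0.983 ± 0.0333 for notochord, lower for those labelled definitive endoderm in 4 of 4 libraries. The other epiblast-derived cells had 0.933. The extended label score was 0.667 ± 0.109 for definitive endoderm, 0.850 for the other cells and 1 for notochord in every library, the highest of the 26 labels. Each of these differences between the labels had p = 0.125 by the exact test and an adjusted p = 0.375. The mean stage score was 0.467 for both labels and for gut, and 0.617 for the other epiblast-derived cells, lower for both labels in 4 of 4 libraries.

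Against gut, cells labelled definitive endoderm had the lower original label score (0.750 against 1, in 4 of 4 libraries, exact p = 0.125, adjusted p = 0.375 over 3 scores), and cells labelled notochord the higher extended label score (1 against 0.733, in 4 of 4 libraries, with the same p). Gut cells outnumbered those labelled definitive endoderm by 12.7, 7.19, 12.7 and 16 to 1 in WT host 2414, 3791, 5819 and 8133. The ratio of gut cells to notochord was 12.7, 6.76, 9.96 and 37.2. Only the last library departed from a near balance of both labels, where notochord made up 50%, 51.5%, 56.1% and 30% of the cells with either (exact interval 14.7 to 49.4% in WT host 8133). That library had the lowest median UMI count of the 8 libraries, and the part of depth in its low notochord share was not tested.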

How the data were processed

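The authors made UMI counts with Cell Ranger 6.0.1 and mm10 (also named in the submitters' processing notes), filtered cells, removed those with a doublet score above 0.5 and transferred labels and stages from 15 nearest atlas cells. The deposited table has 1 row per cell. Its UMI and gene counts are raw totals, its mitochondrial and ribosomal values are percent of UMIs as the authors computed them, its label scores are fractions of 15 neighbours per the authors' methods, and its doublet score is the authors' hybrid score. No gene counts were analysed here.

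Genotype was read from the tdTomato status given for each library. Libraries of a group differed beyond counting noise (largest chi-square p = 2.29e-16). Of 28643 distinct barcodes 80 occurred in more than 1 library, and 1 of the 123 cells had such a barcode. Cell numbers of each label in each library were compared with edgeR 4.0.16 (R 4.3.3; glmQLFit, glmQLFTest, genotype only, library size = epiblast-derived cells, labels with at least 10 cells, Benjamini-Hochberg, threshold 0.05). Fitted fold changes of labels with 0 Eomes-KO cells are not given. The SE beside a fold change is its absolute log2 value divided by the square root of the test's F statistic. Library medians (mean for stage, in days) of WT host libraries with at least 5 cells of a label were compared by exact sign flips in Python 3.11.15 with scipy 1.17.1, on log2 ratios for UMIs and genes. Scripts were tested on simulated data. Each library is a pool of embryos, so p-values cover the spread between pools. Tests between genotypes treat libraries from the same pool as independent. Alternatives were TMM scaling, DESeq2 1.42.0, other denominators, filters, annotations and leaving out libraries. All labels the 123 cells carry are named, and gut for comparison. The cells, labels and tests were chosen with earlier results of these data known.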

Additional observations from a re-analysis of the deposited data

Results flagged for a closer look

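A sample far from the others of its group was looked for in 26 sets of 4 libraries by Dixon's test, and 4 were found. Sets whose 4 values were all equal, such as the definitive endoderm share in Eomes-KO libraries, could not be tested. Chance finds about 1 in 20 sets of continuous values, a rate that does not hold for ties. Where all other values are equal, any different value is called. This was so for both Eomes-KO shares and for the original label score below. The share labelled notochord in Eomes-KO libraries had its highest value, 0.0870%, in Eomes-KO 1153, where the others were at 0, and the share of extended node cells had the same value for the same cell. Among WT host libraries, WT host 8133 had the highest median doublet score of cells labelled notochord (0.18, against 0.12 to 0.13) and their lowest median original label score (0.933, against 1 in the others). This was also the library with the lowest notochord share and the lowest median number of UMIs, and the part of depth in these values was not tested.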

How the results depend on the processing

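All 71 alternative values for the lower numbers of both labels, extended node and extended notochord cells in Eomes-KO passed the threshold (edgeR or DESeq2, adjusted p from 2.12e-06 to 0.0214, the largest for notochord without Eomes-KO 3465). None of the 71 was limited to cells with at least 10000 UMIs, where too few cells were left. Bounds and ratios without each library, given beside their values, were added after the data were seen. The share of both labels together kept its direction under every alternative. It no longer passed with at least 10000 UMIs (-0.127 percentage points, exact p = 0.143), nor without any 1 Eomes-KO library (exact p = 0.0571 for each of the 4, against 0.0286 without any 1 WT host library), with leave-one-out values from -0.787 to -0.619. None of the 33 comparisons within libraries could pass 0.05 under any alternative. For the 30 whose value was not 0, 202 of 213 alternatives kept the sign, 5 gave 0 and 6 had the other sign. The other 3, all of stage scores, were at 0 and went either way. The values of 0 were the stage scores of both labels against gut, the original score of notochord against others without erythroid cells and blood progenitors, and, against gut, that score in libraries with at least 10 cells or without WT host 8133. With gut as comparison, the mitochondrial difference of definitive endoderm became -0.00875 and the original score difference of notochord -0.0167. The log2 ratio of genes between definitive endoderm and notochord became -0.0848 in libraries with at least 10 cells of each, and ranged from -0.0365 to 0.0694 with 1 library left out. Their doublet score difference ranged from -0.00333 to 0.0267 with 1 library left out. The cause of these changes was not tested.

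No paired analysis was possible because the names of the libraries carry no embryo pool. With at least 10000 UMIs edgeR could not be fitted for either label, nor for extended node or extended notochord, as each then had under 10 cells. The extended annotation has no label named definitive endoderm. The Eomes-KO libraries held 601 to 3465 epiblast-derived cells each. By the limit of 3 cells, a count of 0 allows a share of up to 0.0866 to 0.499% in a library. The smallest libraries therefore carry little information on either label.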

Other observations

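The floor plate is the ventral midline of the neural tube that lies over the notochord and receives its signals. Cells with the extended label hindbrain floor plate, a label chosen after its values were seen and carried by none of the 123 cells, numbered 27, 55, 31 and 45 in WT host 2414, 3791, 5819 and 8133. The mutant libraries held 2 such cells, 1 each in Eomes-KO 1153 and Eomes-KO 3346. The mean share was 0.939% ± 0.434 in the host and 0.0292% ± 0.0410 in the mutant libraries (SD, n = 4 each), with a log2 fold change of -5.07 (SE 0.76, edgeR adjusted p = 1.13e-05), where 63.8% of the 69 extended labels were called lower. Other extended hindbrain labels were lower in Eomes-KO too by edgeR's test. The log2 fold change was -3.13 for dorsal (adjusted p = 0.0010) and -2.16 for ventral hindbrain progenitors (adjusted p = 0.00023). For hindbrain neural progenitors it was -2.87, and the adjusted p of 0.0505 did not pass. Any link between the floor plate and the notochord cells was not tested.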
